A study of Mus musculus with 6 samples.

Results

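Enterocytes of the small intestine take up dietary fat, rebuild it into triglyceride and export it as chylomicrons, and the genes of this route were followed in RNA-seq libraries of mouse intestinal adenomas. The 10 genes, *Cd36*, *Fabp1*, *Fabp2*, *Mogat2*, *Dgat1*, *Mttp*, *Apob*, *Apoa1*, *Apoa4* and *Apoc3*, were chosen by name for these roles out of 48440 genes in the deposited tables. All 10 were found. Levels are given as FPKM, in which fragments are divided by transcript length and library size. All 10 also passed the filter on low values, a mean of at least 1 FPKM over the 6 libraries, which 14240 genes passed.

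Fatty acids and monoglycerides released from food in the gut lumen enter enterocytes, where small binding proteins hold them in the cytosol and acyltransferases of the endoplasmic reticulum join them into triglyceride. The microsomal triglyceride transfer protein loads this triglyceride onto apolipoprotein B. The growing particle takes on further apolipoproteins and leaves the cell for the lymph as a chylomicron. In the healthy gut these are genes of mature villus enterocytes, and most of them are more active in the jejunum than in the crypts or the colon.

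The study asked what cells of the Paneth cell (PC) lineage contribute to intestinal adenomas. All mice carried *Apc* Min, a truncating allele of the tumor suppressor *Apc* that gives rise to adenomas, on a C57BL/6 background, and were older than 42 days by the labels. In *Apc* Min, PC del mice a Cre knock-in at *Defa4*, a defensin gene of PCs, removes a stop cassette before diphtheria toxin A at the *Rosa26* locus (*Defa4-Cre*, *Rosa26* iDTA/WT), and the toxin kills cells of that lineage. By the methods of the study the controls, called *Apc* Min here, were littermates with the same *Rosa26* iDTA/WT allele and no Cre. Adenoma tissue was sequenced whole, without sorting of cells, in 3 libraries of *Apc* Min (QC4, QC5 and QC6) and 3 of *Apc* Min, PC del (QC3, QC8 and QC10). The labels do not say that the samples came from separate mice, so the p-values measure the spread between these samples, which may be technical.

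The sequence aligned to genes was close to equal between libraries, with 5.72 (QC4), 5.64 (QC5), 5.68 (QC6), 5.41 (QC3), 5.61 (QC8) and 5.88 (QC10) gigabases. One *Apc* Min library, QC6, stood apart from the other 5 in the genes described here. It had the highest value of the 6 libraries in 9 of the 10 genes, against 12.5% of all genes tested, and *Fabp2* was the exception, highest in QC10. In 7 of the 10 genes QC6 was at least 2-fold above the median of the other 5 libraries on the scale of FPKM + 1, which held for 2.35% of all genes tested (334 of 14240). QC6 also had the lowest value of the 6 libraries in 46.1% of all genes tested. Array quality weights, which limma estimates from how far a library lies from the fit, were 0.237 for QC6 and between 0.634 and 3.09 for the others. Log2 fold changes and counts of genes between genotypes are therefore given below with and without QC6.

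Together the 10 genes held 10400, 9889 and 25410 FPKM in QC4, QC5 and QC6, and 10860, 9180 and 15120 FPKM in QC3, QC8 and QC10. The groups overlapped, with QC6 far above all others and QC10 next. These sums were 1.82%, 1.70% and 4.20% of the FPKM of all genes in the *Apc* Min libraries and 1.91%, 1.67% and 2.65% in the *Apc* Min, PC del libraries. The mean sum was 11720 ± 3062 FPKM (SD, n = 3) in *Apc* Min, PC del adenomas and 15230 ± 8817 FPKM (SD, n = 3) in *Apc* Min adenomas, a ratio of 0.769, and 1.16 without QC6. With *Apoa1* and *Apoa4* left out of the sum the ratio was 0.728, and 0.978 without QC6. In bulk tissue, a difference between libraries in the number of enterocytes and one in RNA of these genes per enterocyte cannot be told apart.

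**Figure D1:**
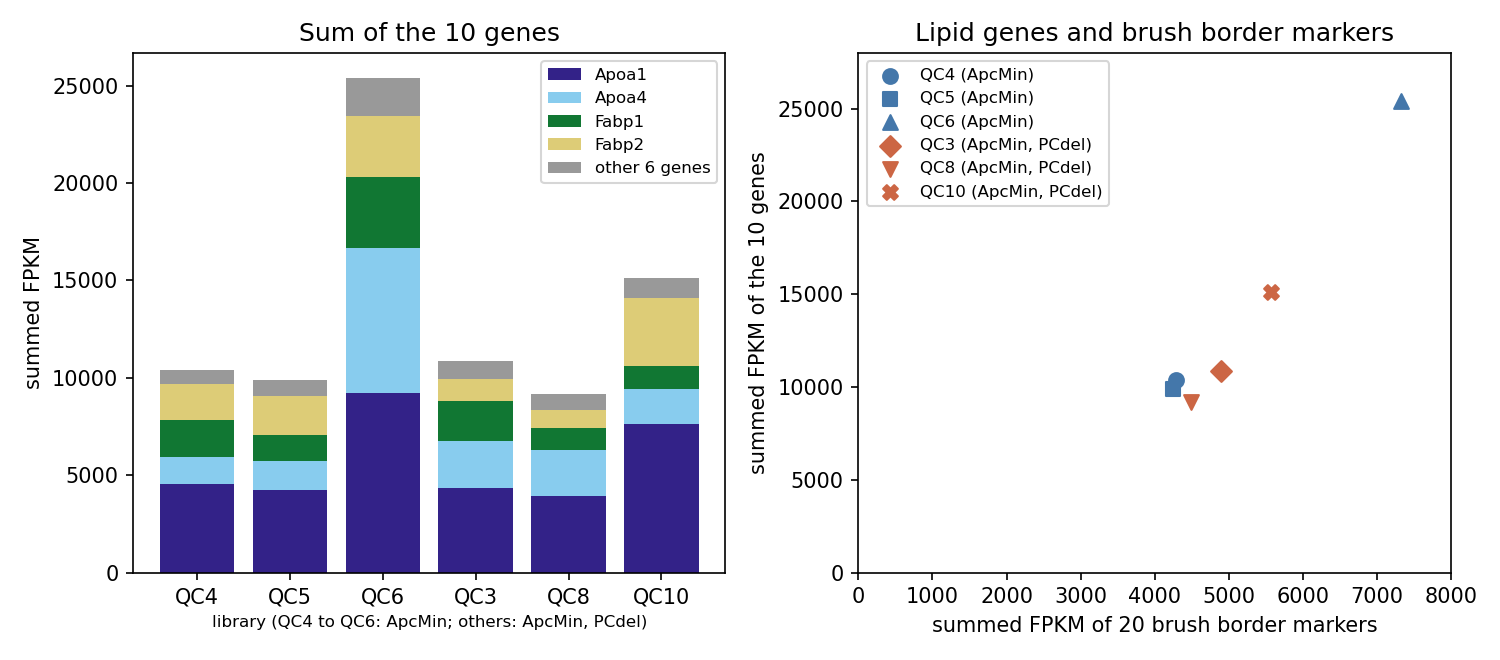
Left, summed FPKM of the 10 lipid absorption and chylomicron genes in each library, with *Apoa1*, *Apoa4*, *Fabp1* and *Fabp2* drawn as separate blocks and the other 6 genes together. Right, the same sum (vertical axis, FPKM) against the summed FPKM of 20 brush border enterocyte markers (horizontal axis), 1 point per library; QC6 lies at 7331 and 25410 FPKM, above the other 5 libraries on both axes.

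Markers of the enterocyte brush border were measured beside them. The 20 markers, among them the microvillus protein villin (*Vil1*) and the digestive enzymes sucrase-isomaltase (*Sis*) and lactase (*Lct*), were all tested, and the most abundant was *Krt20*, a keratin of differentiated cells at the villus top. Their summed level was 4290, 4253 and 7331 FPKM in QC4, QC5 and QC6 and 4900, 4489 and 5573 FPKM in QC3, QC8 and QC10. As with the lipid genes, QC6 was highest and QC10 next. Of the 20 markers, 13 were highest in QC6, against 12.5% of all genes tested. In QC6 9 were at least 2-fold above the median of the other 5 libraries, against 2.35% of all genes tested. *Vil1* itself differed little, from 386.0 FPKM in QC3 to 468.5 FPKM in QC10, while *Treh*, the brush border trehalase, picked after its values were seen, was at 98.3 FPKM in QC6 and between 25.2 and 33.9 FPKM elsewhere. The sum of the lipid genes exceeded that of the markers most in QC6, with a ratio of 3.47, against 2.05 to 2.71 in the other libraries. This ratio depends on *Apoa1* and *Apoa4*. Without them the lipid genes summed to 4459, 4150 and 8732 FPKM in QC4, QC5 and QC6. In QC3, QC8 and QC10 they then summed to 4083, 2861 and 5688 FPKM, nearer to the marker sums in every library. Between genotypes, 0 of the 20 markers had an unadjusted limma p under 0.05, against 3.38% of all genes tested, and 0 had groups that did not overlap, against 7.54%. Their median log2 fold change was -0.04. By mean log2 level 8 of 20 were higher in *Apc* Min, PC del adenomas, against 8983 of all 14240 genes tested. Without QC6 the median was 0.28 and 19 of 20 were higher, against 7041 of all 14240 genes tested. The groups did not overlap in 7 of the 19, against 11.4% of all genes tested. An unadjusted p under 0.05 was found in 3 of them (*Mme*, *Treh* and *Slc6a19*), against 5.76%.

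Markers of other cells that express lipid genes gave a mixed picture. Of 7 adipocyte markers, the defining genes *Lep* and *Retn* were listed at 0 in every library and *Adipoq* and *Plin1* were below 0.1 FPKM. The 2 that were tested, *Cidec* and *Lipe*, summed with the rest to 108.1 FPKM in QC6 and between 40.1 and 64.9 FPKM elsewhere. Of 9 hepatocyte markers, *Fgb* and *Fga* were listed at 0 throughout, while *Alb* was between 5.60 and 19.9 FPKM and *Ttr* between 7.85 and 15.8 FPKM. These 2 and *Cps1*, an enzyme that enterocytes make as well and the most abundant of the list, were tested, and the list summed to between 105.3 and 129.6 FPKM. Of 9 pancreatic acinar markers, 6 were listed at 0 in every library and 2 were tested. *Clps* was highest in QC6, at 172.9 FPKM against 39.1 to 98.9 FPKM elsewhere, and *Pnliprp2* in QC8, at 60.6 FPKM, with QC6 next at 54.8 FPKM and 18.5 to 20.5 FPKM elsewhere. The acinar list summed to 227.8 FPKM in QC6 and between 58.7 and 159.6 FPKM in the other libraries. Nearly all of this was *Clps* and *Pnliprp2*, as *Ctrb1* was at most 0.499 FPKM. The 5 red blood cell markers, led by *Hbb-bs*, were all highest in QC6, against 12.5% of all genes tested. Their sums were 923.8, 504.7 and 1932 FPKM in QC4, QC5 and QC6 and 929.6, 208.7 and 458.7 FPKM in QC3, QC8 and QC10. The 5 tested of 6 enteroendocrine markers were highest in QC6 as well, where the list, led by *Gip*, summed to 159.0 FPKM against 75.5 to 118.0 FPKM elsewhere. Of 12 adenoma and stem cell markers, 9 were lowest in QC6, against 46.1% of all genes tested. The most abundant, *Olfm4*, was not among the 9, at 112.6 FPKM in QC6, between 51.65 FPKM in QC4 and 155.6 FPKM in QC10. The sums of the 12 were 400.9, 385.9 and 314.6 FPKM in QC4, QC5 and QC6 and 363.6, 445.4 and 450.3 FPKM in QC3, QC8 and QC10. The part of these cell populations in the levels of the lipid genes was not tested.

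Of the 10 genes, 0 passed a limma adjusted p of 0.05 between genotypes, against 0.014% of all genes tested, and 0 had an unadjusted p under 0.05, against 3.38%. Their groups overlapped in all 10, while they did not overlap in 7.54% of all genes tested, with 1.54% lower without overlap. The mean log2 level of 9 genes was lower in *Apc* Min, PC del adenomas, against 5257 of all 14240 genes tested. That of *Apoc3* was higher, though its mean FPKM was lower. The median log2 fold change of the 10 was -0.19, against 0.04 over all genes tested. Without QC6, 7 of the 10 were higher and 3 lower, against 7041 higher and 7199 lower of all genes tested. The median was then 0.16, against -0.00 over all genes. In that setting 3 genes, *Apoa4*, *Apoc3* and *Cd36*, were higher in every *Apc* Min, PC del library than in QC4 and QC5, which held for 11.4% of all genes tested, and 0 were lower in every one, against 12.3%. The same 3 genes had an unadjusted limma p under 0.05 without QC6 (*Apoc3* 0.00204, *Cd36* 0.0133 and *Apoa4* 0.0156), against 5.76% of all genes tested (820 of 14240). Leaving out other libraries gave calls in the opposite direction. Without QC4 all 10 genes were lower in *Apc* Min, PC del adenomas, *Dgat1* with an unadjusted p under 0.05, against 3.76% of all genes tested, and *Apob* and *Dgat1* without overlap, against 3.43% lower without overlap. Without QC10 all 10 were lower as well, *Fabp2* with an unadjusted p under 0.05, against 4.34%, and without overlap, against 4.70%. Without QC3 *Fabp1* was lower without overlap, against 3.97% of all genes tested, and with centring on brush border markers *Mttp* was, against 0.393%. Adjusted p-values of the 10 genes from limma were all 1.0 with the 6 libraries and between 0.714 and 0.951 without QC6.

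**Figure D2:**
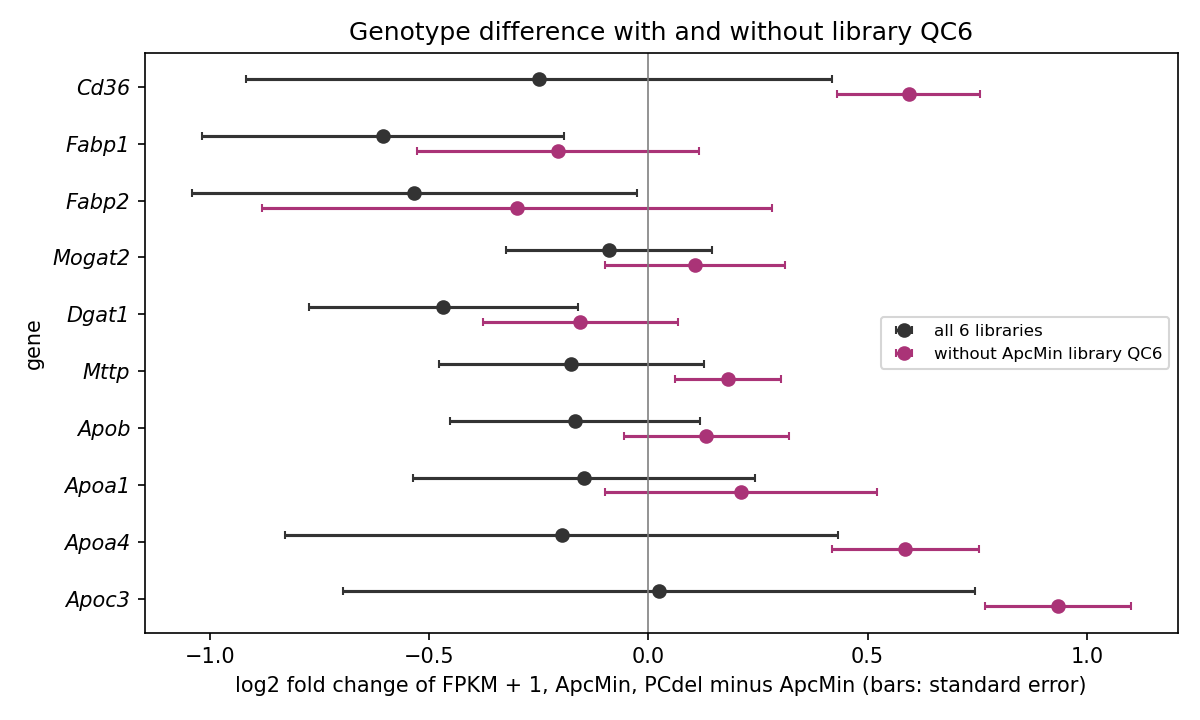
Log2 fold change of FPKM + 1 (horizontal axis, *Apc* Min, PC del minus *Apc* Min) of each gene (vertical axis) with its standard error, from all 6 libraries (dark) and without the *Apc* Min library QC6 (purple). With all libraries 9 of the 10 points lie below 0, and without QC6 3 do, *Fabp1*, *Fabp2* and *Dgat1*.

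*Cd36* (chr5:17781690-17888801 in GRCm38) encodes a membrane glycoprotein that binds long-chain fatty acids and aids their uptake. It had 8.09, 9.69 and 55.8 FPKM in QC4, QC5 and QC6, the *Apc* Min samples. The *Apc* Min, PC del samples QC3, QC8 and QC10 had 13.02, 12.2 and 16.8 FPKM. QC6 was thus the highest by far, the *Apc* Min, PC del libraries lay close together, and QC4 and QC5 were the lowest of the 6. The group means were 24.5 ± 27.1 FPKM (SD, n = 3) in *Apc* Min and 14.0 ± 2.47 FPKM (SD, n = 3) in *Apc* Min, PC del adenomas. The log2 fold change was -0.25 with a standard error of 0.67 (p = 1.0 by exact two-sided permutation). Without QC6 it was 0.59 with a standard error of 0.16. *Cd36* was the least abundant of the 10 genes in every library. It is also made by endothelial cells and macrophages. The 8 endothelial markers, led by *Pecam1*, summed to 44.7, 45.6 and 29.4 FPKM in QC4, QC5 and QC6, against 57.8, 39.4 and 37.6 FPKM in QC3, QC8 and QC10, with 5 of the 8 lowest in QC6, against 46.1% of all genes tested. The 6 macrophage markers, led by *C1qa*, had sums of 80.0, 79.5 and 92.7 FPKM in QC4, QC5 and QC6 and of 98.6, 113.3 and 99.1 FPKM in QC3, QC8 and QC10. None of the 6 was highest in QC6, against 12.5% of all genes tested. All 6 had a higher mean log2 level in *Apc* Min, PC del adenomas, against 8983 of all 14240 genes tested. Of these 2 (*Adgre1* and *C1qb*) had an unadjusted limma p under 0.05, against 3.38% of all genes tested, and no overlap, against 7.54%. Without QC6 5 of the 6 were higher, against 7041 of all genes tested. Of the 5, 3 had an unadjusted limma p under 0.05, against 5.76%, and no overlap, against 11.4%. All 6 macrophage markers were highest in QC8, against 21.5% of all genes tested, while *Cd36* was highest in QC6. The part of endothelial cells and macrophages in the level of *Cd36* was not tested.

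Both enterocyte fatty acid binding proteins were abundant. *Fabp1* (chr6:71199827-71205023), the liver-type protein, which also binds bulkier ligands, had 1895, 1324 and 3626 FPKM in QC4, QC5 and QC6. Its levels were 2016, 1082 and 1185 FPKM in QC3, QC8 and QC10. QC6 was the highest and QC8 the lowest, and QC3 lay above QC4 and QC5, so that the groups overlapped. Between genotypes the log2 fold change was the lowest of the 10 genes, -0.60 with a standard error of 0.41 (p = 0.3 by exact two-sided permutation), and -0.21 ± 0.32 (SE) without QC6. *Fabp2* (chr3:122895072-122899506), the intestinal-type protein, is confined to the gut and is often used as an enterocyte marker. It had 1826, 2023 and 3127 FPKM in QC4, QC5 and QC6 and 1145, 947.2 and 3509 FPKM in QC3, QC8 and QC10. Here the *Apc* Min, PC del libraries held both the highest value (QC10) and the lowest ones (QC8 and QC3). The log2 fold change was -0.53 with a standard error of 0.51 (p = 0.5 by exact two-sided permutation), and -0.30 ± 0.58 (SE) without QC6.

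The balance between the *Fabp1* and *Fabp2* transcripts differed between libraries of one genotype. The ratio of *Fabp2* to *Fabp1* in FPKM was 0.964, 1.53 and 0.863 in QC4, QC5 and QC6. In QC3, QC8 and QC10 it was 0.568, 0.875 and 2.96. The lowest and the highest ratio were thus both in *Apc* Min, PC del adenomas, and the ratios of the groups overlapped. A relative, *Fabp6*, the bile acid binding protein of the ileum, was at 8.22, 23.6 and 2.39 FPKM in QC4, QC5 and QC6. It was at 6.18, 1477 and 630.2 FPKM in QC3, QC8 and QC10, high in 2 of the *Apc* Min, PC del libraries. Its log2 fold change was 4.36, the groups overlapped, and without QC6 it was 3.65. The 6 ileal markers found in the tables, of 7 listed, are led by *Fabp6* and include the bile acid transporter genes *Slc10a2*, *Slc51a* and *Slc51b*. Of the 6, 5 were highest in QC8, against 21.5% of all genes tested. The sums of the 6 were 120.1, 128.7 and 132.1 FPKM in QC4, QC5 and QC6 and 91.7, 1783 and 890.3 FPKM in QC3, QC8 and QC10. The stretch of small intestine each adenoma came from is not given in the labels, and its part in the levels of the lipid genes was not tested.

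Triglyceride synthesis from absorbed monoglyceride was represented by *Mogat2*, the monoacylglycerol acyltransferase of the intestine, and *Dgat1*, a diacylglycerol acyltransferase that adds the last fatty acid. *Mogat2* (chr7:99219084-99238619) had 136.5, 117.8 and 191.4 FPKM in QC4, QC5 and QC6 and 133.1, 110.4 and 173.4 FPKM in QC3, QC8 and QC10. It varied least of the 10 genes, with the highest library 1.73-fold above the lowest. The groups interleaved, with QC6 and QC10 on top, and the log2 fold change was -0.09 ± 0.23 (SE), and 0.11 ± 0.21 (SE) without QC6. *Dgat1* (chr15:76502015-76511951) had 96.8, 133.1 and 217.9 FPKM in QC4, QC5 and QC6 and 108.2, 80.8 and 120.6 FPKM in QC3, QC8 and QC10. QC6 was the highest and QC8 the lowest, and QC4 lay below QC3 and QC10. Its log2 fold change was -0.47 with a standard error of 0.31 (p = 0.4 by exact two-sided permutation), and -0.16 ± 0.22 (SE) without QC6.

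Particle assembly needs the transfer protein and its acceptor. *Mttp* (chr3:138089854-138144968), the lipid-binding subunit of the microsomal triglyceride transfer protein, had 203.5, 189.6 and 413.8 FPKM in QC4, QC5 and QC6. Its levels in QC3, QC8 and QC10 were 243.6, 197.3 and 230.3 FPKM. Apart from QC6 the libraries lay between 189.6 and 243.6 FPKM, with the groups overlapping. Between genotypes the log2 fold change was -0.18 ± 0.30 (SE), and 0.18 ± 0.12 (SE) without QC6. *Apob* (chr12:7977648-8016835), which encodes the protein that a chylomicron is built on, had 172.6, 259.3 and 395.2 FPKM in QC4, QC5 and QC6 and 231.8, 246.5 and 218.5 FPKM in QC3, QC8 and QC10. All *Apc* Min, PC del libraries fell within the range of the *Apc* Min libraries, whose lowest was QC4. The log2 fold change of *Apob* was -0.17 ± 0.29 (SE), and 0.13 ± 0.19 (SE) without QC6. *P4hb*, which encodes the second subunit of the transfer protein and is a disulfide isomerase of the endoplasmic reticulum in all secretory cells, was at 583.2, 534.6 and 695.8 FPKM in QC4, QC5 and QC6 and at 601.7, 494.1 and 581.6 FPKM in QC3, QC8 and QC10.

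The exchangeable apolipoproteins include the most abundant member, *Apoa1*, and the one with the widest range, *Apoc3*. *Apoa1* (chr9:46228580-46230466) encodes the main protein of high-density lipoprotein, which enterocytes also place on chylomicrons. It had 4542, 4227 and 9243 FPKM in QC4, QC5 and QC6 and 4341, 3950 and 7618 FPKM in QC3, QC8 and QC10, which put it between the 3rd and the 10th most abundant gene of each library. QC6 and QC10 were high, 1 library of each genotype, and the other 4 lay between 3950 and 4542 FPKM. Between genotypes the log2 fold change was -0.15 ± 0.39 (SE; p = 0.6 by exact two-sided permutation), and 0.21 ± 0.31 (SE) without QC6.

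*Apoa4* (chr9:46240696-46243459), an apolipoprotein that the gut secretes in response to fat, had 1403, 1512 and 7440 FPKM in QC4, QC5 and QC6. It was at 2436, 2369 and 1813 FPKM in QC3, QC8 and QC10. QC6 was 4.10-fold above the median of the other 5 libraries, and the 3 *Apc* Min, PC del libraries lay between it and the pair of QC4 and QC5. The log2 fold change was -0.20 with a standard error of 0.63 (p = 1.0 by exact two-sided permutation), and 0.59 with a standard error of 0.17 without QC6. *Apoa4* stood at 30.9%, 35.8% and 80.5% of *Apoa1* in QC4, QC5 and QC6 and at 56.1%, 60.0% and 23.8% in QC3, QC8 and QC10. QC10, high in *Apoa1*, thus had the lowest share of *Apoa4*. Part of the *Apoa4* signal is uncertain in its assignment, since 64.5% of the 31-base words of its transcripts, read on either strand, also occur in transcripts of other annotated genes, 32.3% in the antisense gene *Gm10680*. Genes on the opposite strand also overlap *Mttp* (*Trmt10a*, sharing 6.43% of the words of *Mttp*) and *Mogat2* (*Gm45012*, 1.39%), and reads in the shared stretches cannot be told apart.

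*Apoc3* (chr9:46232933-46235636), an inhibitor of the clearance of triglyceride-rich particles, had 120.2, 92.4 and 704.6 FPKM in QC4, QC5 and QC6 and 191.9, 184.1 and 234.1 FPKM in QC3, QC8 and QC10. It had the widest range of the 10 genes, 7.62-fold from QC5 to QC6. The mean was 305.7 ± 345.7 FPKM (SD, n = 3) in *Apc* Min and 203.4 ± 26.9 FPKM (SD, n = 3) in *Apc* Min, PC del adenomas, lower in the latter although the mean log2 level was higher. As for *Apoa4* and *Cd36*, the *Apc* Min, PC del libraries lay close together, below QC6 and above QC4 and QC5. Between genotypes the log2 fold change was 0.02 with a standard error of 0.72 (p = 1.0 by exact two-sided permutation), and 0.93 with a standard error of 0.17 without QC6. Within *Apc* Min adenomas the SD of log2(FPKM + 1) was 1.59 for *Apoc3*, 1.46 for *Cd36* and 1.36 for *Apoa4*, against 0.18, 0.23 and 0.24 within *Apc* Min, PC del adenomas.

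**Figure D3:**
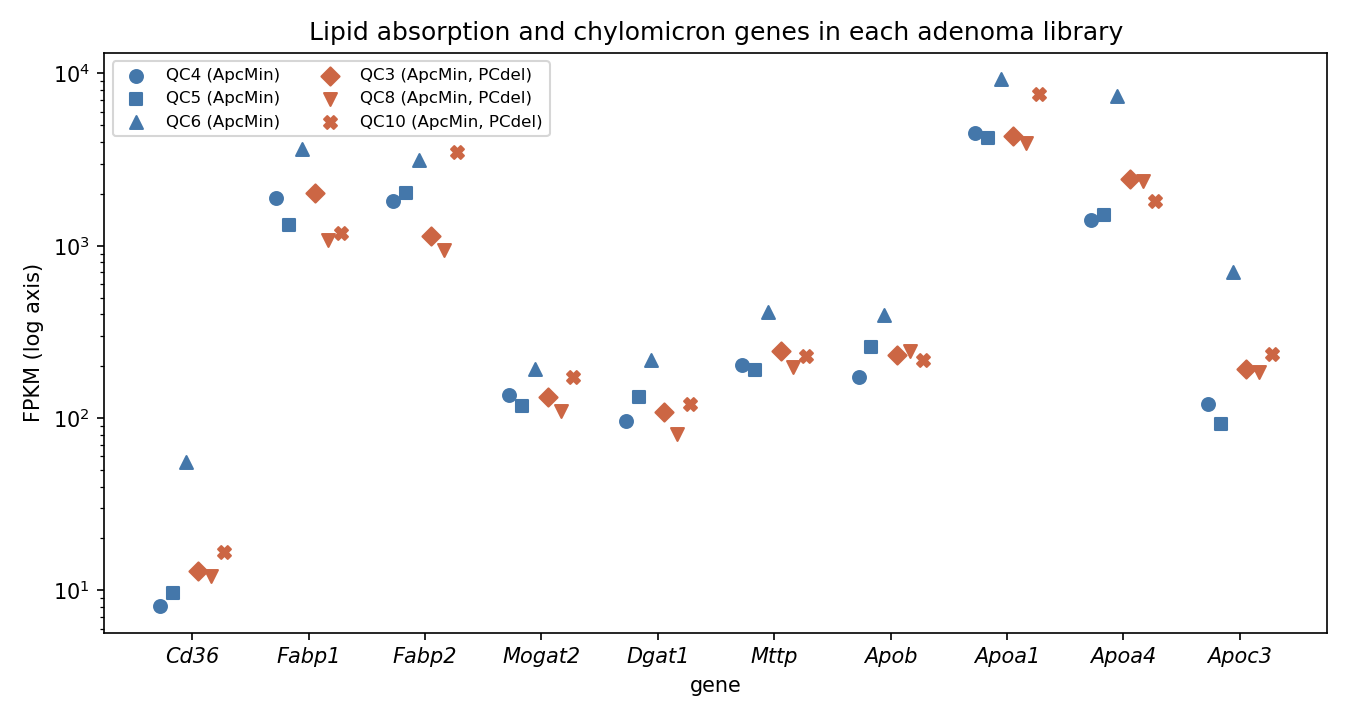
FPKM (vertical log axis) of each of the 10 genes (horizontal axis) in the 6 libraries, 1 symbol per library, *Apc* Min in blue and *Apc* Min, PC del in orange. The *Apc* Min library QC6 (blue triangle) is the highest for every gene except *Fabp2*, where QC10 is.

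Ordered by mean FPKM over the 6 libraries, the genes ran from *Apoa1* (5653) through *Apoa4* (2829), *Fabp2* (2096), *Fabp1* (1855), *Apoc3* (254.6), *Apob* (254.0), *Mttp* (246.3), *Mogat2* (143.8) and *Dgat1* (126.2) to *Cd36* (19.3). The steps from *Apoa1* to *Apoa4*, from *Fabp1* to *Apoc3*, from *Mttp* to *Mogat2* and from *Dgat1* to *Cd36* were seen in 6 of 6 libraries. The other neighbours changed places between libraries. *Apoa4* was above *Fabp2* in 3 of 6, *Fabp2* above *Fabp1* in 2 of 6, *Apoc3* above *Apob* and *Apob* above *Mttp* in 2 of 6 each, and *Mogat2* above *Dgat1* in 4 of 6.

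The wider pathway was read from 8 lists with 98 further genes, of which 90 were tested. None of the 90 passed a limma adjusted p of 0.05. At an unadjusted p under 0.05 there were 1 higher and 1 lower in *Apc* Min, PC del adenomas, against 384 and 97 of all 14240 genes tested (3.38% together). Without QC6 there were 3 higher and 3 lower, against 487 and 333 of all genes tested (5.76% together). The groups did not overlap in 4 higher and 4 lower, against 854 higher and 219 lower of all 14240 genes tested. Without QC6 they did not in 11 higher, against 11.4%, and 9 lower, against 12.3%. The median log2 fold change was -0.04, against 0.04 over all genes tested, and 0.04 without QC6. By mean log2 level 32 were higher and 58 lower, against 8983 higher and 5257 lower of all genes tested. Without QC6 53 were higher and 37 lower, against 7041 and 7199 of all genes tested. Higher and lower means in the lists below are also of log2 levels. QC6 had the highest value in 42 of the 90 genes, against 12.5% of all genes tested.

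Of 10 genes of fatty acid uptake and activation, all tested, 4 had a higher and 6 a lower mean log2 level in *Apc* Min, PC del adenomas. Without QC6 5 were higher and 5 lower (median log2 fold change -0.02 with all libraries, and -0.01 without QC6). The most abundant were *Dbi*, the acyl-CoA binding protein, and *Acsl5*, an acyl-CoA synthetase of enterocytes. *Dbi* was at 582.4, 551.5 and 626.5 FPKM in QC4, QC5 and QC6 and at 488.3, 519.8 and 456.9 FPKM in QC3, QC8 and QC10, lower in every *Apc* Min, PC del library (log2 fold change -0.26, and -0.22 without QC6; p = 0.1 by exact two-sided permutation, and no smaller p is possible with 3 libraries per genotype). *Acsl5* ranged from 316.0 FPKM in QC8 to 567.9 FPKM in QC6. *Acsl4*, a synthetase with a preference for arachidonic acid, was at 6.02, 5.48 and 4.86 FPKM in QC4, QC5 and QC6 and at 7.90, 7.90 and 6.76 FPKM in QC3, QC8 and QC10. Its groups did not overlap, and its log2 fold change was 0.40 (limma adjusted p = 1.0), and 0.33 without QC6. *Slc27a2*, a very-long-chain acyl-CoA synthetase named here after its values were seen, was highest in QC6 and lowest in QC4 and QC5, with 2.74, 4.16 and 29.3 FPKM in QC4, QC5 and QC6 and 7.26, 10.3 and 4.92 FPKM in QC3, QC8 and QC10.

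In triglyceride synthesis 10 of 11 genes were tested, with 6 higher and 4 lower means, and 8 and 2 without QC6 (median 0.04, and 0.10 without QC6). *Agpat2*, which makes phosphatidic acid, ranged from 179.0 FPKM in QC3 to 283.0 FPKM in QC10. *Dgat2*, the second diacylglycerol acyltransferase, was at 118.1, 125.6 and 388.5 FPKM in QC4, QC5 and QC6 and at 161.1, 147.4 and 118.5 FPKM in QC3, QC8 and QC10. QC6 was the highest and QC4 the lowest, and the groups overlapped (log2 fold change -0.34, and 0.21 without QC6).

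In chylomicron assembly and secretion 14 of 15 genes were tested, with 4 higher and 10 lower means, and 8 and 6 without QC6 (median -0.11, and 0.02 without QC6). Of the 14, 8 were highest in QC6, against 12.5% of all genes tested. *Surf4*, a cargo receptor for lipoproteins and the most abundant gene of the list after *P4hb*, ranged from 133.2 FPKM in QC8 to 166.8 FPKM in QC6. *Apoc2*, the cofactor of lipoprotein lipase, was at 29.1, 19.1 and 71.1 FPKM in QC4, QC5 and QC6 and at 15.0, 14.4 and 6.74 FPKM in QC3, QC8 and QC10. Every *Apc* Min, PC del library was below every *Apc* Min library, and the log2 fold change was -1.50 with a standard error of 0.50 (limma adjusted p = 1.0), and -0.99 without QC6. The readthrough locus *Gm44805* overlaps *Apoc2* on the same strand and holds 78.8% of its 31-base words, so the division of reads between them is uncertain. *Gm44805* itself was listed at 411.0, 412.7 and 1039 FPKM in QC4, QC5 and QC6 and at 484.8, 322.9 and 282.5 FPKM in QC3, QC8 and QC10, with the groups overlapping.

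In the remaining lists none of the genes had an unadjusted limma p under 0.05, against 3.38% of all genes tested, and without QC6 2 fatty acid oxidation genes did, both lower, against 5.76%. Of lipid droplet and lipolysis genes, 9 of 11 were tested, 5 with higher and 4 with lower mean log2 levels. Without QC6 7 were higher and 2 lower (median 0.01 with all libraries, and 0.15 without QC6). The most abundant were the droplet coat gene *Plin3* (86.1 to 120.0 FPKM) and the triglyceride lipase gene *Pnpla2* (41.4 to 71.9 FPKM). Of 8 cholesterol absorption and efflux genes, all tested, 3 had higher and 5 lower means, the same without QC6 (median -0.09, and -0.02 without QC6). *Npc1l1*, the sterol uptake transporter, ranged from 56.1 FPKM in QC3 to 89.6 FPKM in QC10, and *Abcg5*, part of the sterol efflux pump, from 25.7 FPKM in QC8 to 51.3 FPKM in QC6. Of 20 fatty acid oxidation genes known to respond to PPARs, 19 were tested, 2 with higher and 17 with lower mean log2 levels. Without QC6 8 were higher and 11 lower (median -0.09 with all libraries, and -0.02 without QC6). Of the 19 genes, 13 were highest in QC6, against 12.5% of all genes tested. *Acadl*, the most abundant of them, was lowest in QC6, at 89.6 FPKM against 96.6 to 122.6 FPKM elsewhere.

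Transcription factors known to act on these genes in enterocytes formed a further list. All 16 regulators were tested, 5 with higher and 11 with lower mean log2 levels. Without QC6 10 were higher and 6 lower (median -0.08 with all libraries, and 0.04 without QC6). *Hnf4a*, a nuclear receptor that drives many enterocyte genes, was at 236.9, 241.6 and 231.2 FPKM in QC4, QC5 and QC6 and at 227.2, 257.1 and 291.1 FPKM in QC3, QC8 and QC10. QC6 was thus within the range of the other libraries. *Creb3l3*, a membrane-bound factor of the liver and gut that acts on apolipoprotein genes, was at 140.1, 128.1 and 223.1 FPKM in QC4, QC5 and QC6 and at 142.3, 114.1 and 174.1 FPKM in QC3, QC8 and QC10, highest in QC6 with QC10 next. In the binding protein family 4 of 7 genes were tested, 3 with higher and 1 with a lower mean, and 4 and 0 without QC6 (median 0.18, and 0.10 without QC6). *Rbp2*, the retinol binding protein of enterocytes and the most abundant of this list, was at 2329, 2355 and 4690 FPKM in QC4, QC5 and QC6 and at 2647, 2078 and 2664 FPKM in QC3, QC8 and QC10.

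The pattern of the 10 genes over the 6 libraries was compared with that of 918 other tested genes whose log2(FPKM + 1) had an SD of at least 0.5. The mean of the centred log2 levels of the 10 genes was -0.35, -0.33 and 1.07 in QC4, QC5 and QC6 and -0.13, -0.36 and 0.10 in QC3, QC8 and QC10. Among the genes with the highest Pearson correlation to it were *Slc5a11*, *Vwa1*, *Pipox*, *Ugt2a3*, *Cyp3a13*, *Gpt*, *Guca2b* and *Sult1d1*, with r between 0.987 and 0.996 over 6 libraries. Without QC6 their r over 5 libraries lay between 0.891 and 0.989. *Slc5a11*, a sodium-dependent inositol transporter, was at 7.36, 7.18 and 28.5 FPKM in QC4, QC5 and QC6 and at 9.04, 7.57 and 10.4 FPKM in QC3, QC8 and QC10. *Guca2b*, which encodes the peptide hormone uroguanylin, was at 488.5, 412.0 and 1712 FPKM in QC4, QC5 and QC6 and at 570.8, 452.0 and 617.5 FPKM in QC3, QC8 and QC10. The 5 most unlike genes were *Naa30*, *Fam124a*, *Notum*, *Anxa1* and *Ccdc71*, with r between -0.975 and -0.956, and between -0.916 and -0.742 without QC6. *Notum*, a secreted Wnt inhibitor that adenoma cells make, was at 84.9, 58.8 and 23.9 FPKM in QC4, QC5 and QC6 and at 56.9, 77.5 and 53.2 FPKM in QC3, QC8 and QC10.

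*Apoa1*, *Apoc3* and *Apoa4* lie side by side on chromosome 9, and within 50 kb of *Apoa1* the tables list 7 genes in all. The 3 apolipoprotein genes and the antisense gene *Gm10680*, which overlaps the end of *Apoa4*, were highest in QC6. *Gm10680* was at 19.1, 22.3 and 103.6 FPKM in QC4, QC5 and QC6 and at 40.1, 32.3 and 25.3 FPKM in QC3, QC8 and QC10, the order of libraries seen for *Apoa4*. Whether reads were counted by strand is not given in the sources used here, so reads of this pair cannot be told apart. *Apoa5*, a liver gene of the same cluster, was below 0.1 FPKM in every library. The flanking genes *Sik3* (7.03 to 11.3 FPKM) and *Zpr1* (11.4 to 14.9 FPKM) were both lowest in QC6. High levels in QC6 were thus seen in 3 of the 4 apolipoprotein genes of the cluster and not in its flanks.

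Because most members were high together in QC6, their promoters were read from RefSeq's table for GRCm38.p6, which matched 7 of the 10 (*Apoa1*, *Apoa4*, *Apob*, *Mttp*, *Fabp1*, *Fabp2* and *Cd36*), as windows of 300 bases from 250 before to 50 after the start. Matches were sought on both strands. AGGTCA, a site bound by many nuclear receptors, was in 2 of the 7 windows (*Fabp1* and *Cd36*), against 16.3% of all 32851 windows of that length. CAAAG was in 6 of 7, against 53.9%, and the cyclic AMP element TGACGTCA in 0 of 7, against 1.79%. CAAAGNNC, a longer form of CAAAG that lies within sites of HNF4 factors and was added after the sequences were seen, was in 4 of 7 (*Apoa4*, *Apob*, *Fabp1* and *Fabp2*), against 17.7%. Because CAAAGNNC was chosen with these sequences in view, its count is a description and no test of enrichment. A match describes letters in these windows, and binding was not measured. The bases before the annotated start are shown for the *Apoa1* and *Apoa4* pair, which differed between libraries in their ratio, and for *Apob* and *Fabp1*, with CAAAGNNC on either strand in capitals. All 4 are on the plus strand, at chr9:46228380-46228579 (*Apoa1*), chr9:46240594-46240695 (*Apoa4*), chr12:7977427-7977647 (*Apob*), chr6:71199629-71199826 (*Fabp1*).
Apoa1: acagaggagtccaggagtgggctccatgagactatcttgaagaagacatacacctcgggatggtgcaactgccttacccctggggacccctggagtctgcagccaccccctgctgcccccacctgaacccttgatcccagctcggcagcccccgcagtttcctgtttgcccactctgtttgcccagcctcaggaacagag
Apoa4: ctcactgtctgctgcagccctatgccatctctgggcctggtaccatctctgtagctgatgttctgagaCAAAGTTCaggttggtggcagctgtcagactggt
Apob: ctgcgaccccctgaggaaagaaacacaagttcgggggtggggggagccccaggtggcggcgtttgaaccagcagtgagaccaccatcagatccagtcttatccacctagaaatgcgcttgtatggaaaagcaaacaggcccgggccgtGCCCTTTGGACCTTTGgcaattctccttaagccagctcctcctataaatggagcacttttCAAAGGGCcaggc
Fabp1: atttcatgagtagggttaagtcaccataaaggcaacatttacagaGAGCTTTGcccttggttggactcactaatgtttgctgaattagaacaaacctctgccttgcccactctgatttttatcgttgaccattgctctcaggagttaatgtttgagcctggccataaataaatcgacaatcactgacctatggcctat
The *Apoa1* stretch holds 0 matches, those of *Apoa4* and *Fabp1* 1 each and that of *Apob* 3, of which 2 adjoin each other.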

How the data were processed

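RNA was sequenced from TruSeq libraries on a HiSeq2500 by the study's methods, which name CLC Genomics Workbench and a MatLab normalization without settings. The authors deposited FPKM for each gene of each library, TPM scaled to an equal sum per library, and unscaled read coverage; the program and annotation that made these tables are not given in the sources used here, and gene positions match GRCm38. Entries of one gene identifier were summed, and coverage served only for depth. No counts were used, so counting intervals were not derived. limma 3.58.1 in R 4.3.3 (lmFit, eBayes with trend) compared log2(FPKM + 1), a scale that understates changes of low genes, for the genes that averaged 1 FPKM or more, with Benjamini-Hochberg adjustment over all of them; it was tested on simulated data. Single genes also had an exact two-sided permutation test in scipy 1.17.1 (Python 3.11.15; figures by matplotlib 3.10.9), whose smallest p is 0.1. Pathway genes named are from the 2 most abundant of each list and those with an unadjusted p under 0.05 and groups that do not overlap; genes most like and unlike the members, and neighbours within 50 kb of *Apoa1*, were named by rank or place, and a few of these and of the markers are shown with values picked after they were seen. Shared sequence was counted as 31-base words in GENCODE transcripts. The members and lists were chosen with earlier results of these data known. Alternatives were each library left out, TPM, quantile normalization, centring on brush border markers or on the median, a minimum mean of 5, no filter, a pseudocount of 0.1, array quality weights, and eBayes without trend.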

Additional observations from a re-analysis of the deposited data

How the results depend on the processing

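Across 15 alternatives, 0 of 150 values of single members passed a limma adjusted p of 0.05, and 20 turned in direction. Without QC6 the log2 fold changes of *Apoa1*, *Apoa4*, *Apob*, *Mttp*, *Mogat2* and *Cd36* were 0.21, 0.59, 0.13, 0.18, 0.11 and 0.59, where all libraries gave negative values. With array quality weights they were 0.0619 (*Apoa1*), 0.50 (*Apoa4*), 0.15 (*Mttp*), 0.0578 (*Mogat2*) and 0.37 (*Cd36*). Quantile normalization gave 0.0063 for *Apoa1* and 0.0375 for *Apoa4*, centring on brush border markers 0.0024 for *Mogat2*, and leaving out QC8 0.03 for *Apoa1* and 0.06 for *Mogat2*. *Apoc3* became negative with median centring (-0.0255) and without QC4 (-0.34), QC5 (-0.53) or QC10 (-0.08). Leaving out each library in turn, the log2 fold changes ranged from -0.44 to 0.21 for *Apoa1*, -0.62 to 0.59 for *Apoa4*, -0.46 to 0.13 for *Apob*, -0.53 to 0.93 for *Apoc3*, -0.38 to 0.18 for *Mttp*, -0.26 to 0.11 for *Mogat2*, -0.73 to 0.59 for *Cd36*, -0.74 to -0.16 for *Dgat1*, -0.93 to -0.21 for *Fabp1* and -1.12 to -0.17 for *Fabp2*. The negative values of *Fabp1*, *Fabp2* and *Dgat1* kept their sign in all 15, though array quality weights brought *Fabp1* to -0.0894. The median of the 10 genes lay between -0.54 without QC4 and 0.16 without QC6, with 0.0598 for array quality weights, and the ratio of their sums between 0.654 without QC5 and 1.16 without QC6 (0.769 with all), while TPM gave 0.808, median centring 0.726, brush border centring 0.898 and quantile normalization 0.894. Over all genes, those past an adjusted p of 0.05 were 2, and 1 without a filter, 1 with median centring, 21 with brush border centring and 1 to 5 with a library left out. Those with an unadjusted p under 0.05 were 481, and 976 without a filter, 260 at a minimum mean of 5, 134 with brush border centring, 1270 with array quality weights and 358 to 820 with a library left out (820 without QC6). Of these 79.8% were higher (384 higher, 97 lower), and 88% with TPM (520, 71), 58.9% with quantile normalization (261, 182), 61.4% with median centring (277, 174), 55.2% with brush border centring (74, 60), 63.5% with array quality weights (806, 464) and 59.4% without QC6 (487, 333). Groups did not overlap in 1073 genes, in 1942 without a filter, 622 at a minimum mean of 5, 163 with brush border centring and 1808 to 3370 with a library left out, where fewer libraries are compared. The cause of these shifts was not tested. The pseudocount, the filters, eBayes without trend and array weights leave the sums of FPKM as they are and gave no value for them. No paired analysis was possible because the library numbers do not link the genotypes.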

Other observations

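*Plagl2*, a transcription factor gene of the chylomicron secretion list whose loss in mice is known to impair fat absorption, was chosen here after its values were seen. It was at 11.3, 11.3 and 9.43 FPKM in the *Apc* Min libraries QC4, QC5 and QC6. In the *Apc* Min, PC del libraries it was at 0.976 FPKM in QC3 and 2.08 FPKM in QC10, but at 11.9 FPKM in QC8, so the groups overlapped (log2 fold change -1.45, and -1.53 without QC6, limma adjusted p = 1.0).

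The glucose and fructose transporter genes *Slc2a2* and *Slc2a5*, also singled out after their values were seen, were lowest of the 3 *Apc* Min, PC del libraries in QC10, where *Fabp2* was highest. *Slc2a2* was at 28.4, 14.1 and 5.82 FPKM in QC3, QC8 and QC10, and *Slc2a5* at 39.8, 14.7 and 9.62 FPKM, against 1145, 947.2 and 3509 FPKM of *Fabp2*. In *Apc* Min adenomas *Slc2a2* was at 10.5, 10.1 and 52.7 FPKM and *Slc2a5* at 19.1, 16.1 and 27.9 FPKM in QC4, QC5 and QC6.

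Of 7 goblet cell markers, led by *Spink4*, 0 were highest in QC6, against 12.5% of all genes tested. Their sums were 10140, 10390 and 8284 FPKM in QC4, QC5 and QC6 and 8649, 9103 and 10010 FPKM in QC3, QC8 and QC10. The 6 smooth muscle markers, led by *Tagln*, were all highest in QC8, against 21.5% of all genes tested. Their sums were 211.0, 345.7 and 327.9 FPKM in QC4, QC5 and QC6 and 348.5, 448.4 and 313.9 FPKM in QC3, QC8 and QC10. Of 7 PC markers, led by *Lyz1*, the groups did not overlap in 3, all lower in *Apc* Min, PC del adenomas, against 1.54% of all genes tested that were lower without overlap, and in 4 without QC6, all lower, against 12.3%. An unadjusted limma p under 0.05 was found in 5, all lower, against 3.38%, and in 4 without QC6, against 5.76%. The sums were 3212, 4675 and 5289 FPKM in QC4, QC5 and QC6 and 2226, 3440 and 2019 FPKM in QC3, QC8 and QC10.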
